A study of Mus musculus with 31 samples.

Results

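Fatty acid oxidation and ketogenesis were followed through 31 genes in mouse liver, chosen by symbol from textbook membership of the pathway and all found among the 43629 genes of the deposited count table. All pups were C57Bl/6J, carried deletions of both deiodinase genes (Dio1KO/Dio2KO) and were killed at postnatal day 14, and liver RNA was sequenced from 31 of them. Pups with a homozygous Pax8 deletion (Dio1KO/Dio2KO/Pax8KO), which lack a thyroid, received an injection on alternate days, starting at postnatal day 2, of T4 (n = 8), T3 (n = 6), T3+T4 (n = 7) or vehicle (n = 5). The control pups (n = 5) were littermates with a thyroid (Dio1KO/Dio2KO/Pax8Het) that had received vehicle. Doses are not given in the sources used here. No library came from a pup with intact deiodinases, so the effect of those deletions cannot be read from these groups. The groups ask what replacement of T4, T3 or both does to the liver of a pup that has no thyroid and cannot convert T4 to T3 through either deiodinase.

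Long-chain fatty acids are activated to acyl-CoA, passed into mitochondria as carnitine esters, and shortened by repeated rounds of dehydrogenation, hydration, a second dehydrogenation and thiolysis. Electrons leave through the electron transfer flavoprotein, and in liver much of the acetyl-CoA is turned into ketone bodies for other tissues. Peroxisomes run a related spiral for very long and branched chains, and many genes of both spirals are known targets of the fatty acid receptor PPARα in the liver of suckling rodents, when milk fat is the main fuel.

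PPARα with its partner RXR is known to bind repeats of AGGTCA spaced by 1 base (DR1), and the thyroid hormone receptor with RXR repeats spaced by 4 bases (DR4). The promoter windows below, 250 bases before to 50 bases after the start, are from RefSeq (GRCm38.p6). They are shown because their 3 genes were called in a comparison and hold such a repeat. Both strands were searched, with at most 2 mismatches to AGGTCANAGGTCA or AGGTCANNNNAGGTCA. Capitals mark the match, and each sequence runs 5′ to 3′ along the gene's strand, which is the minus strand in all 3. The Acadvl window lies at chr11:70015379-70015678 (DR4, 97 bases before the start), that of Echs1 at chr7:140116372-140116671 (DR1, 83 bases before) and that of Etfa at chr9:55512194-55512493 (DR1 on the opposite strand, 77 bases before).
Acadvl: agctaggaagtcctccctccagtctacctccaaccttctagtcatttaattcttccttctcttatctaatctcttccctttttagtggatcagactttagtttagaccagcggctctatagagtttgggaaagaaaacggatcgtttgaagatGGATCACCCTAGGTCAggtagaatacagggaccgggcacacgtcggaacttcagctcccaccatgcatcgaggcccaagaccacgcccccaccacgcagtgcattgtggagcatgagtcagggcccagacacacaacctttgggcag
Echs1: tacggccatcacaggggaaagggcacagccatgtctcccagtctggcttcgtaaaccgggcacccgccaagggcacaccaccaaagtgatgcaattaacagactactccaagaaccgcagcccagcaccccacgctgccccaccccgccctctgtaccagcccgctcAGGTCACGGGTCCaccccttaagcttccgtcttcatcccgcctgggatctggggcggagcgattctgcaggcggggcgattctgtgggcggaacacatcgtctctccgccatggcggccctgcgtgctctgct
Etfa: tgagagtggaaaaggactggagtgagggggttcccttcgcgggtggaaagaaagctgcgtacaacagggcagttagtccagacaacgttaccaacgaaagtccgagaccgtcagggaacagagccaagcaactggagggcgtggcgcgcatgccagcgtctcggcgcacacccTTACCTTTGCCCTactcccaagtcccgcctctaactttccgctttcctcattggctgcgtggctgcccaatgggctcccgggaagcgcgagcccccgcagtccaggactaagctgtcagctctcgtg
Windows were found for 26 of the 31 members (28 windows), 14 of them called members. A DR1 match was present in 3 of the 28 member windows (10.7%), against 3.86% of all 32851 RefSeq windows, the third belonging to Slc25a20, which was not called. A DR4 match was present in 1 member window (3.57%), against 3.02% of all windows. The single hexamer AGGTCA, with no mismatch, was present in 4 member windows (14.3%), against 16.3% of all windows. These are matches of letters, and binding was not measured.

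Library totals ran from 4383769 to 7158919 counts. They were larger after T3+T4 and T3 than after vehicle: the log2 ratio of mean totals was 0.26 for T3+T4 over vehicle and 0.20 for T3 over vehicle. Of the treated libraries, 6 of 7 T3+T4 and 5 of 6 T3 libraries exceeded the largest vehicle library. Mean totals were 5297107 counts in vehicle, 5343109 in T4, 5413170 in control, 6070280 in T3 and 6353684 in T3+T4 livers. The summed level of 10 hepatocyte markers ranged from 6117 to 7551 CPM (counts scaled to a common library size) in T4 livers, 5705 to 7035 CPM in T3 livers, 5184 to 6956 CPM in T3+T4 livers, 7465 to 8020 CPM in vehicle livers and 6578 to 7344 CPM in control livers. Livers also held RNA of other tissues. The summed level of 10 pancreatic acinar markers was 13.6 CPM at most in T4 livers, 15.2 CPM in T3 livers, 215.7 CPM in T3+T4 livers, 240.2 CPM in vehicle livers and 87.7 CPM in control livers. That of 9 skeletal muscle markers was 270.6 CPM at most in T4 livers, 443.3 CPM in T3 livers, 95.9 CPM in T3+T4 livers, 11.0 CPM in vehicle livers and 4.38 CPM in control livers. Dio1 was still counted, at 12.7 ± 4.42 CPM in vehicle livers and 169.1 ± 31.8 CPM in control livers (SD, n = 5 each), and the deleted bases are not given in the sources used here, so this level checks no label.

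All 31 members were expressed, with mean counts per library between 289 and 3372 (median 1174), and all passed the filter on low counts. Per kilobase of exon, in vehicle livers, the most abundant was Acaa2, the mitochondrial 3-ketoacyl-CoA thiolase, at 189 ± 10.8 CPM per kb (SD, n = 5). Ehhadh, the peroxisomal bifunctional enzyme, followed at 140.1 ± 12.1 CPM per kb, and Bdh1, which makes 3-hydroxybutyrate, at 135 ± 11.1 CPM per kb, levels closer together than their SDs. This order is for merged exons. With the length of the longest transcript, Acaa2 was again highest, but Bdh1 (166.0 CPM per kb), Crot (164.2) and Acadm (141.5) stood above Ehhadh (140.1), and Crot moved from 90.2 CPM per kb. At the low end stood Slc22a5, the plasma membrane carnitine transporter, at 16.4 ± 2.94 CPM per kb, below Hadhb, Echs1, Crat and Slc25a20, which lay between 26.5 and 28.0 CPM per kb. Summed over the members, the level ranged from 7164 to 8761 CPM in T4 livers (median 7881), 6044 to 7928 CPM in T3 livers (median 7051) and 6618 to 7513 CPM in T3+T4 livers (median 6759). It ranged from 7388 to 8194 CPM in vehicle livers (median 8133) and from 7383 to 7723 CPM in control livers (median 7505). The ranges of T3+T4 and vehicle livers overlapped at the edge only, and those of T4 and vehicle livers overlapped throughout.

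In livers given T3+T4, many of the mitochondrial oxidation genes fell by a small amount relative to vehicle. By edgeR's quasi-likelihood test with Benjamini-Hochberg adjustment over 17057 genes, 17 of 31 members (54.8%) were called lower and none higher. Of all tested genes, 8.45% were called lower and 15.8% in either direction. The median log2 fold change of the members was -0.20, against -0.0028 over all tested genes, and 28 of 31 estimates lay below 0. T3 alone gave 7 members called lower and none higher (22.6% of the members). Of all tested genes, 3.24% were called lower and 6.77% in either direction. The members' median was then -0.17, against -0.0009 over all tested genes, with 29 of 31 estimates below 0. After T4 alone no member was called by edgeR or DESeq2, where edgeR called 0.41% of all tested genes. An unadjusted p under 0.05 was found for 1 member by edgeR, against 12.7% of all tested genes. These 3 comparisons share the vehicle livers. In bulk tissue, fewer hepatocytes and less RNA per hepatocyte cannot be told apart. The members carry more counts than the tested genes at large (median mean count 1174, against 173.8), so smaller differences can be called in them.

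**Figure D1:**
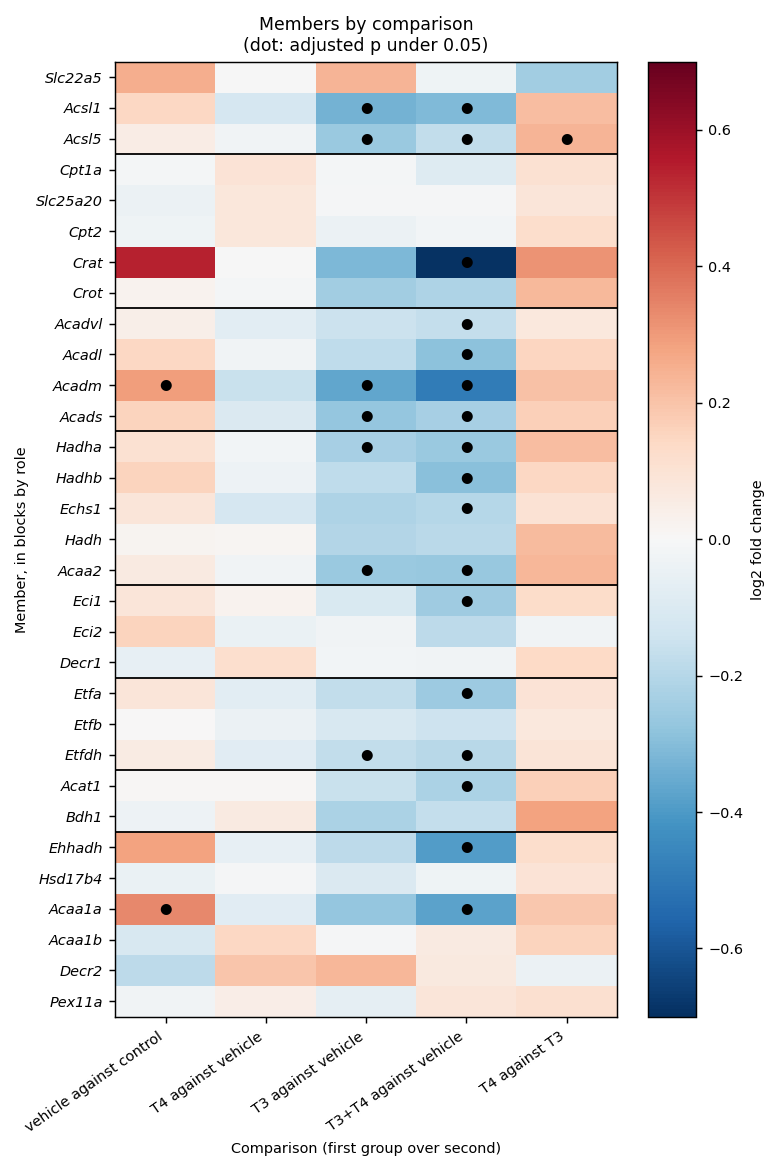
Log2 fold change of the 31 members (rows, in blocks by role) in the 5 main comparisons (columns, first group over second), with a dot where the adjusted p was under 0.05. Most mitochondrial members are blue in the T3 and T3+T4 columns, with 7 and 17 dots, and the T4 against vehicle column is pale and without dots.

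Of the 3 genes for carnitine uptake and activation, 2 were called lower after T3+T4 and after T3. Acsl1, the main long-chain acyl-CoA synthetase of liver, had 392 (lowest), 501 (median) and 596 (highest) CPM in T3 livers and 484 (lowest), 498 (median) and 552 (highest) CPM in T3+T4 livers, against 605, 610.1, 627, 637 and 682 CPM in vehicle livers. Every liver given T3 or T3+T4 lay below every vehicle liver (log2 fold change -0.31 ± 0.07 (SE), adjusted p = 0.00297 for T3+T4; -0.33 ± 0.07, adjusted p = 0.00571 for T3). Acsl5, a second synthetase, had 185 (lowest), 199 (median) and 232 (highest) CPM in T4 livers, 139 (lowest), 177 (median) and 191 (highest) CPM in T3 livers and 166 (lowest), 182 (median) and 196 (highest) CPM in T3+T4 livers, against 202, 202, 202, 211 and 211 CPM in vehicle livers. T3 and T3+T4 livers again lay below all vehicle livers (log2 fold change -0.26 ± 0.06 (SE), adjusted p = 0.0112 for T3; -0.17 ± 0.06, adjusted p = 0.0465 for T3+T4). The T3+T4 call for Acsl5 was lost without any of 22 of the 31 libraries in turn (adjusted p 0.0504 to 0.116), and Acsl5 shares 404 exonic bases with Zdhhc6 on the opposite strand, which had a mean of 541 counts. Slc22a5 was not called (-0.03 (95% interval -0.44 to 0.38) for T3+T4) and had 109.8 CPM in T3 animal 61, where the next T3 liver had 54.4 CPM.

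The genes of the carnitine shuttle, with 1 exception, showed no call. Crat, the carnitine acetyltransferase, had 106 (lowest), 153 (median) and 189.5 (highest) CPM in T4 livers, 108 (lowest), 120.0 (median) and 135 (highest) CPM in T3 livers and 52.5 (lowest), 96.0 (median) and 134 (highest) CPM in T3+T4 livers, against 128, 134, 136, 167 and 188 CPM in vehicle livers and 87.0, 94.1, 98.8, 98.8 and 139 CPM in control livers. It fell by 38.0% after T3+T4, the largest fall among the members in that comparison (log2 fold change -0.69 ± 0.16 (SE), adjusted p = 0.00462), although the highest T3+T4 liver (134 CPM) reached into the vehicle range. Cpt1a, the rate-limiting entry step and in rodents a described thyroid hormone target, had 502 (lowest), 634 (median) and 776 (highest) CPM in T4 livers, 487 (lowest), 601 (median) and 657 (highest) CPM in T3 livers and 521 (lowest), 559 (median) and 583 (highest) CPM in T3+T4 livers, against 507, 544, 577, 645 and 693 CPM in vehicle livers. The groups overlapped and the estimates were 0.10 (95% interval -0.08 to 0.28) for T4, -0.01 (95% interval -0.20 to 0.18) for T3 and -0.09 (95% interval -0.27 to 0.10) for T3+T4 on the log2 scale, so a fall as large as that of Crat lay outside the Cpt1a interval for T3+T4. Cpt2, the inner membrane partner of Cpt1a, was estimated at -0.02 (95% interval -0.15 to 0.11) for T3+T4, and Slc25a20, the carnitine-acylcarnitine carrier, at -0.01 (95% interval -0.14 to 0.12). Crot, the peroxisomal octanoyltransferase, had -0.21 ± 0.12 for T3+T4 (adjusted p = 0.236), with 220 CPM in T3 animal 61.

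All 4 acyl-CoA dehydrogenases, which take the first step of each round and differ in the chain length they prefer, were called lower after T3+T4. Acadm, the medium-chain enzyme (chr3:153922357-153944632, GRCm38, minus strand), had 230.1 (lowest), 261 (median) and 298 (highest) CPM in T4 livers, 206 (lowest), 219.5 (median) and 263 (highest) CPM in T3 livers and 192 (lowest), 201 (median) and 239 (highest) CPM in T3+T4 livers. Vehicle livers had 276, 281, 281, 299 and 311 CPM and control livers 224, 233, 239, 242 and 245 CPM. Every T3 and T3+T4 liver was below every vehicle liver, and Acadm fell by 28.7% after T3+T4 (log2 fold change -0.49 ± 0.07 (SE), adjusted p = 1.03e-05). After T3 it fell by 22.2% (log2 fold change -0.36 ± 0.07 (SE), adjusted p = 0.00188). After T4 the estimate was -0.15 (95% interval -0.29 to -0.02), with an adjusted p of 0.294. Acadl, the long-chain enzyme, had 194 (lowest), 209 (median) and 229 (highest) CPM in T3+T4 livers, against 239, 252, 253, 259.8 and 261 CPM in vehicle livers, with no overlap (log2 fold change -0.29 ± 0.06 (SE), adjusted p = 0.0013). Acads, for short chains, had 143 (lowest), 173 (median) and 193 (highest) CPM in T3 livers and 166 (lowest), 177 (median) and 180.2 (highest) CPM in T3+T4 livers, against 197, 199, 202, 209 and 224 CPM in vehicle livers. Neither treated group overlapped vehicle (log2 fold change -0.23 ± 0.05 (SE), adjusted p = 0.00369 for T3+T4; -0.27 ± 0.06, adjusted p = 0.00434 for T3). Acadvl, for very long chains, whose promoter window above holds the DR4 match, had 103 (lowest), 111 (median) and 118 (highest) CPM in T3+T4 livers, against 122, 123, 124, 125 and 127 CPM in vehicle livers, again without overlap (log2 fold change -0.17 ± 0.05 (SE), adjusted p = 0.0206). The Acadvl call was lost without vehicle animal 67 (adjusted p = 0.0504) or T3+T4 animal 84 (adjusted p = 0.054), and the gene shares 1151 exonic bases with Dvl2 on the opposite strand, whose mean count was 119.5.

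**Figure D2:**
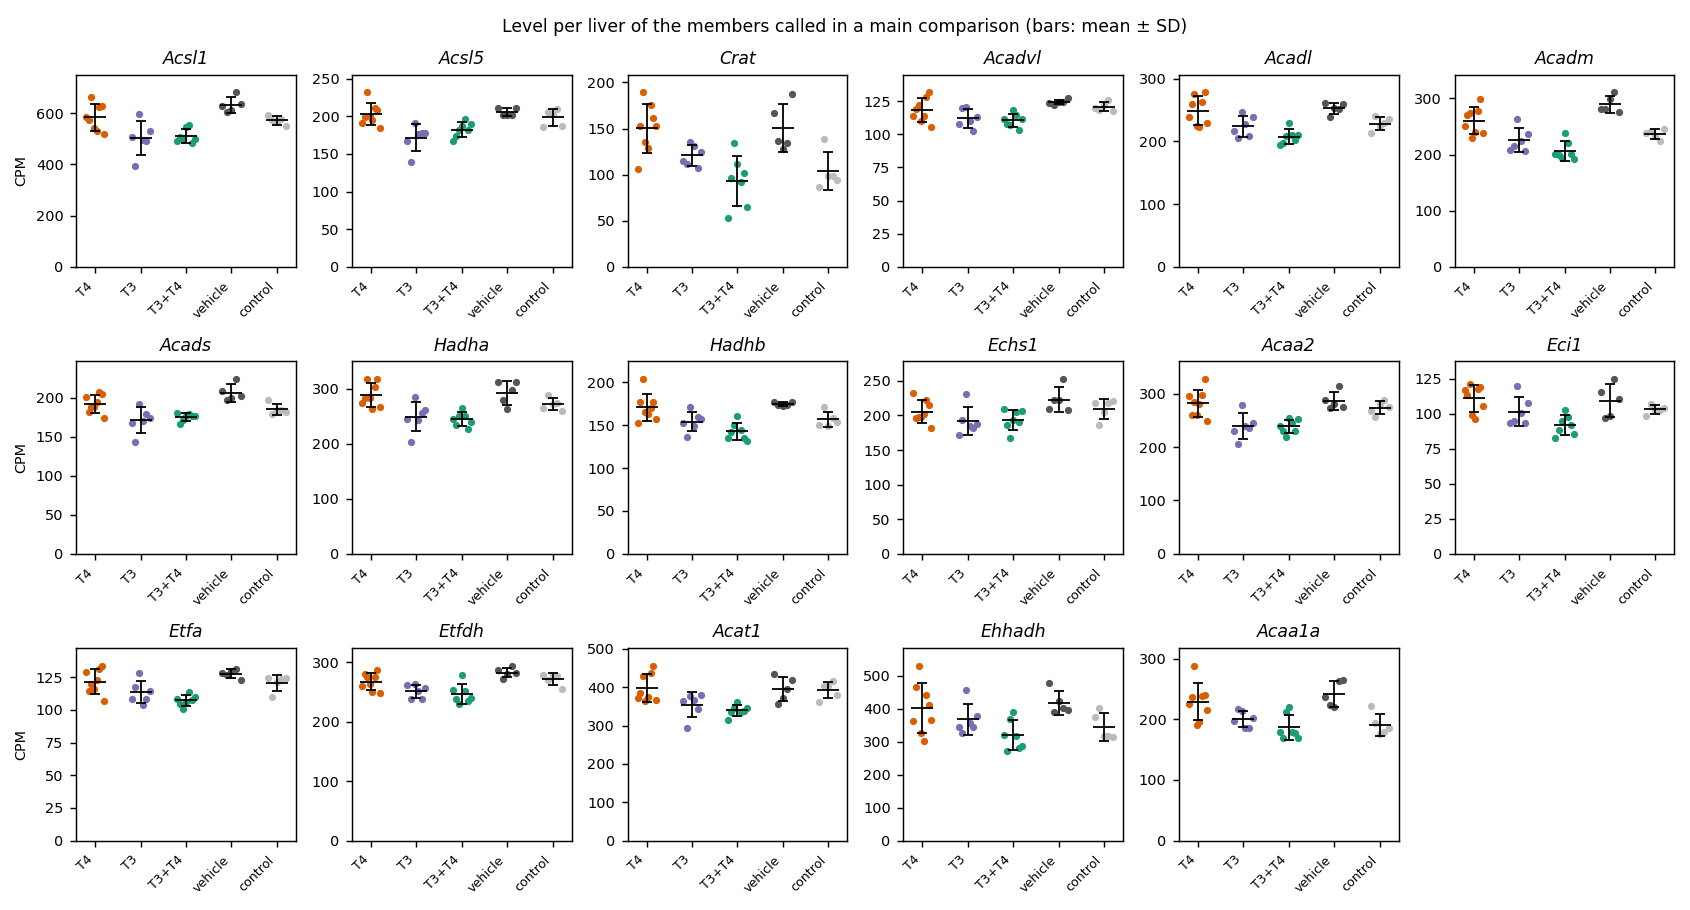
CPM after TMM scaling in each liver (points) for the 17 members called in at least 1 main comparison, by group (T4, T3, T3+T4, vehicle, control), with mean ± SD as bars and each vertical axis starting at 0. The T3+T4 points of Acadm, Acadl, Acsl1 and Hadhb lie below all vehicle points, while the 2 groups overlap in Crat, Eci1 and Hadha.

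Of the 5 genes for the later steps of the mitochondrial spiral, 4 were called lower after T3+T4 and 2 after T3. Hadha, the alpha subunit of the trifunctional protein, had 204 (lowest), 250.5 (median) and 285 (highest) CPM in T3 livers and 227 (lowest), 245 (median) and 266 (highest) CPM in T3+T4 livers, against 262, 279, 297, 311 and 312 CPM in vehicle livers. T3 livers overlapped the 2 lowest vehicle livers and T3+T4 livers the lowest 1 (log2 fold change -0.26 ± 0.06 (SE), adjusted p = 0.0056 for T3+T4; -0.23 ± 0.07, adjusted p = 0.0295 for T3). Its partner Hadhb, the thiolase subunit, had 131 (lowest), 142 (median) and 161 (highest) CPM in T3+T4 livers, against 172, 174, 174, 177 and 178 CPM in vehicle livers, with no overlap (log2 fold change -0.29 ± 0.06 (SE), adjusted p = 0.00159). Acaa2 had 206 (lowest), 238 (median) and 279.5 (highest) CPM in T3 livers and 219 (lowest), 239 (median) and 254 (highest) CPM in T3+T4 livers, against 273, 275, 282, 288 and 314 CPM in vehicle livers. Only T3+T4 was free of overlap with vehicle (log2 fold change -0.26 ± 0.06 (SE), adjusted p = 0.00516 for T3+T4; -0.26 ± 0.07, adjusted p = 0.0166 for T3). Echs1, the short-chain enoyl-CoA hydratase, with a DR1 match in the window above, had 168 (lowest), 193 (median) and 209 (highest) CPM in T3+T4 livers, against 207, 209, 222, 223 and 253 CPM in vehicle livers, a call near the threshold (log2 fold change -0.20 ± 0.07 (SE), adjusted p = 0.0484) that was lost without any of 23 of the 31 libraries in turn (adjusted p 0.0514 to 0.162). Hadh, the short-chain hydroxyacyl-CoA dehydrogenase, was not called after T3+T4 (-0.19 ± 0.07, adjusted p = 0.0739). For T3, the Hadha call was lost without vehicle animal 2019, 55 or 67 or T3 animal 60, 61 or 64 (adjusted p 0.0556 to 0.0711), and the Acaa2 call without vehicle animal 55 (adjusted p = 0.0635).

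Unsaturated fatty acids need auxiliary enzymes, and 1 of these 3 was called. Eci1, a mitochondrial enoyl-CoA isomerase, had 82.8 (lowest), 91.9 (median) and 103 (highest) CPM in T3+T4 livers, against 97.0, 98.6, 110.1, 116 and 125 CPM in vehicle livers, with overlap (log2 fold change -0.25 ± 0.07 (SE), adjusted p = 0.0186). It was not called without vehicle animal 55 (adjusted p = 0.0743). Eci2 was estimated at -0.18 (95% interval -0.38 to 0.02) and Decr1, the mitochondrial dienoyl-CoA reductase, at -0.02 (95% interval -0.23 to 0.18) for T3+T4 on the log2 scale.

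Among the electron transfer genes, Etfa and Etfdh were called and Etfb was not. Etfa, the alpha subunit of the flavoprotein and the other called member with a DR1 match, had 100.4 (lowest), 108 (median) and 114 (highest) CPM in T3+T4 livers, against 123, 126, 129, 129.9 and 131 CPM in vehicle livers, with no overlap (log2 fold change -0.25 ± 0.05 (SE), adjusted p = 0.00194). Etfb, its beta subunit, had -0.15 ± 0.05 (adjusted p = 0.0567). Etfdh, the dehydrogenase that hands the electrons to ubiquinone, had 237 (lowest), 254 (median) and 263 (highest) CPM in T3 livers and 229 (lowest), 240.5 (median) and 279 (highest) CPM in T3+T4 livers, against 271, 279.7, 282, 286 and 294 CPM in vehicle livers. T3 livers lay below all vehicle livers and 1 T3+T4 liver did not (log2 fold change -0.20 ± 0.05 (SE), adjusted p = 0.00462 for T3+T4; -0.17 ± 0.05, adjusted p = 0.0309 for T3). The T3 call of Etfdh was lost without vehicle animal 2019, 38 or 55 or T3 animal 61, 64 or 65 (adjusted p 0.0509 to 0.0843).

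Both ketone body members make or shape the ketone pool. Acat1, which joins acetyl-CoA units, had 313 (lowest), 339 (median) and 362 (highest) CPM in T3+T4 livers, against 357, 370.4, 395, 418 and 434 CPM in vehicle livers, with overlap at the lowest vehicle liver (log2 fold change -0.22 ± 0.07 (SE), adjusted p = 0.021). That call was lost without vehicle animal 2019, vehicle animal 67 or T3+T4 animal 72 (adjusted p 0.055 to 0.0722). Bdh1 was not called, at -0.16 (95% interval -0.42 to 0.09) for T3+T4 and -0.22 (95% interval -0.48 to 0.04) for T3, and T3 animal 61 had 208 CPM where the next T3 liver had 486 CPM.

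Of the 6 peroxisomal members, 2 were called lower after T3+T4 and none after T3. Ehhadh had 270.4 (lowest), 317 (median) and 389 (highest) CPM in T3+T4 livers, against 389, 394, 403, 424 and 478 CPM in vehicle livers (log2 fold change -0.39 ± 0.12 (SE), adjusted p = 0.02). The highest T3+T4 liver and the lowest vehicle liver were within 1 CPM without overlap, and the call was lost without vehicle animal 2019 (adjusted p = 0.0624). Acaa1a, a peroxisomal thiolase (chr9:119339676-119350299, GRCm38, plus strand), had 169 (lowest), 179 (median) and 219.7 (highest) CPM in T3+T4 livers, against 219, 224, 237, 264 and 265 CPM in vehicle livers, with a slight overlap (log2 fold change -0.37 ± 0.09 (SE), adjusted p = 0.00351). Its paralog Acaa1b, at chr9:119148023-119157093 on the other strand, stood at 0.06 (95% interval -0.16 to 0.28), and how shared reads were assigned between the pair is not stated, so both values are uncertain. Estimates for the others after T3+T4 were -0.03 ± 0.05 for Hsd17b4, the D-bifunctional protein, 0.07 ± 0.12 for Decr2, the peroxisomal dienoyl-CoA reductase, and 0.08 ± 0.11 for Pex11a, a peroxisome division factor. None of these passed the test, and Acaa1b, Decr2 and Pex11a were the 3 members whose T3+T4 estimates lay above 0.

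Vehicle livers against controls ask what the lack of a thyroid does. Here 2 of 31 members (6.45%) were called higher and none lower, a share near that of all tested genes, of which 4.92% were called higher and 9.63% in either direction. Acadm had 276, 281, 281, 299 and 311 CPM in vehicle livers, against 224, 233, 239, 242 and 245 CPM in control livers, without overlap (log2 fold change 0.29 ± 0.07 (SE), adjusted p = 0.00951), a call that held without each library in turn. Acaa1a had 219, 224, 237, 264 and 265 CPM in vehicle livers, against 176, 179, 186, 193 and 221 CPM in control livers (log2 fold change 0.34 ± 0.09 (SE), adjusted p = 0.0201), a call that ended without any 1 of vehicle animals 55 and 67 and control animals 49 and 50 (adjusted p 0.0507 to 0.0639). The count of members called by edgeR was then 1, and it was 4 without T3 animal 61. DESeq2, on all libraries, called 3 members. The median log2 fold change of the members was 0.06, against 0.01 over all tested genes, and Crat, at 0.54 ± 0.18 (adjusted p = 0.0536), had the highest estimate. Against the same controls, edgeR called no member after T4, T3 or T3+T4. It called 3.54% of all tested genes after T4, 0.211% after T3 and 0% after T3+T4. An unadjusted p under 0.05 was found for 4 members after T4, where 19.8% of all tested genes had one. It was found for 10 members after T3, against 17.4% of all tested genes, and for 13 after T3+T4, against 7.19%. DESeq2 called 1 member after T4, 0 after T3 and 3 after T3+T4, where it gave an adjusted p for 14 of the 31. Shares of all tested genes called by DESeq2 are not given here for any of these comparisons. The median log2 fold changes against control were 0.04 after T4, -0.09 after T3 and -0.13 after T3+T4.

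T4 and T3 were compared directly, and 1 member was called, while 28 of 31 estimates lay above 0. The members' median log2 fold change was 0.14, against 0.0008 over all tested genes. Acsl5 was higher in T4 livers than in T3 livers, by the values given above, with overlapping ranges (log2 fold change 0.24 ± 0.06 (SE), adjusted p = 0.0456), where 0.158% of all tested genes were called higher and 0.551% in either direction. The call was lost without any of 21 of the 31 libraries in turn (adjusted p up to 0.126), and with the sex covariate described below (adjusted p = 0.205). Without T3 animal 62, the highest T3 liver for 24 of the 31 members, 7 members were called. The share of all tested genes called without that liver is not given here. All 31 intervals for T4 against vehicle lay within 0.5 of 0 on the log2 scale, between -0.41 and 0.43. T3+T4 against T4 gave 13 members called lower and none higher, where 4.55% of all tested genes were called lower and 8.61% in either direction, led by Acadm (-0.33 ± 0.06, adjusted p = 0.000652) and Acadl (-0.26 ± 0.05, adjusted p = 0.00229). Of these, Acsl1 was lost without any of 23 libraries in turn, Hadh without any of 24 and Ehhadh without any of 9 (adjusted p 0.0502 to 0.109). In fits described below, 2 members were called with the library total covariate and 2 without raised acinar or muscle libraries. Fewer than 13 were called in animals 54 to 85 as well. Shares of all tested genes called in these fits of T3+T4 against T4 are not given here. Mean totals were 6353684 counts in T3+T4 livers and 5343109 in T4 livers, so group and library total moved together here too. T3+T4 against T3 gave no member by edgeR or DESeq2, where edgeR called 0.0117% of all tested genes. An unadjusted p under 0.05 was found for 2 members by edgeR, against 12.7% of all tested genes.

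Individual T3 livers weighed on these counts. T3 animal 61 was the lowest T3 liver for 17 of the 31 members and T3 animal 62 the highest for 24. Without T3 animal 62, 14 members were called lower in T3 against vehicle, the 7 above included, and without vehicle animal 55 there were 4. For T3+T4 against vehicle the count ran from 14 to 20 when each library was left out in turn. Shares of all tested genes called in these leave-one-out fits are not given here, so a change of count need not be particular to the members. Sex was uneven between the groups. By Xist and 4 Y-linked genes (Ddx3y, Eif2s3y, Kdm5d and Uty), 6 of 8 T4, 1 of 6 T3, 5 of 7 T3+T4, 3 of 5 vehicle and 1 of 5 control animals were male. The labels name 9 animals male and 11 female, leave 11 unnamed, and differ from these genes in 4. T3 animal 62 was the 1 male of its group by these genes, and T3 animal 68, the highest T3 liver for 4 members, was labelled male but had the genes of a female. Animal 62 was also the smallest T3 library, at 5237993 counts, where the largest vehicle library had 5625282. Sex and library total cannot be told apart in that liver. With sex by these genes as a covariate, added after seeing the data, 18 members were called lower after T3+T4, the 17 above included. In that fit 8.44% of all tested genes were called lower. After T3, 4 of the 7 stayed called (Acadm, Acads, Acsl1 and Acsl5), where 1.79% of all tested genes were called lower. Hadha, Etfdh and Acaa2 were lost (adjusted p = 0.0871, 0.0877 and 0.0512).

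The falls went with larger libraries. In deposited counts, before scaling, the members' median log2 ratio of T3+T4 over vehicle was 0.10, with 5 members below 0, where the library totals differed by 0.26. Within groups, the slope of log2 count on log2 library total is 1 for proportional counts. It was 0.76 at the median of the members and below 1 in 23 of 31. The median slope was 1.17 over all tested genes and 0.86 over those with a mean of at least 1000 counts. Acaa2 had the lowest slope, 0.35, and its counts differed between libraries by 1.32 times at most, while totals differed by 1.63 times. Counts in this table level off near 2 per exonic base, and no step that would set such a level is stated. Averaged over the libraries, the members ran from 0.0942 to 0.976 counts per exonic base (median 0.306), and in single libraries Acaa2 reached 1.08. Across the table, 108 genes averaged more than 1. After a correction for that ceiling, 15 members were called lower after T3+T4 and 7 after T3. The share of all tested genes called in that fit is not given here. With the log2 library total as a covariate, 4 members stayed called after T3+T4 (Crat, Acadm, Hadhb and Acaa1a), where 5.6% of all tested genes were called lower. After T3, 2 stayed called (Acadm and Acads), where 1.61% of all tested genes were called lower. The median log2 fold change of the members was then -0.11 for T3+T4 and -0.09 for T3. Group and library total moved together, so their parts in the falls cannot be told apart. Mean totals of T4 livers lay near those of vehicle livers, so the lack of calls after T4 does not separate hormone from library total. The contrasts of T3 and T3+T4 with T4 share this limit.

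**Figure D3:**
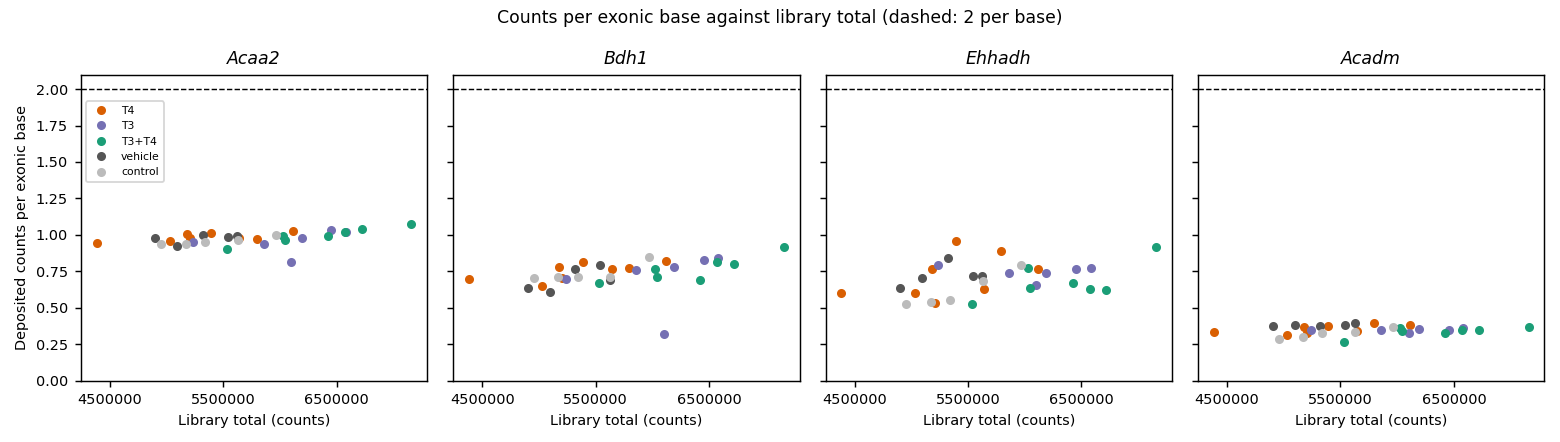
Deposited counts per exonic base against library total (counts) in each liver for the 3 most abundant members per kilobase and Acadm, coloured by group, with a dashed line at 2 per base. Acaa2 stays between 0.81 and 1.08 over the whole range of totals, and the T3+T4 and T3 libraries lie mostly to the right of the vehicle libraries.

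**Figure D4:**
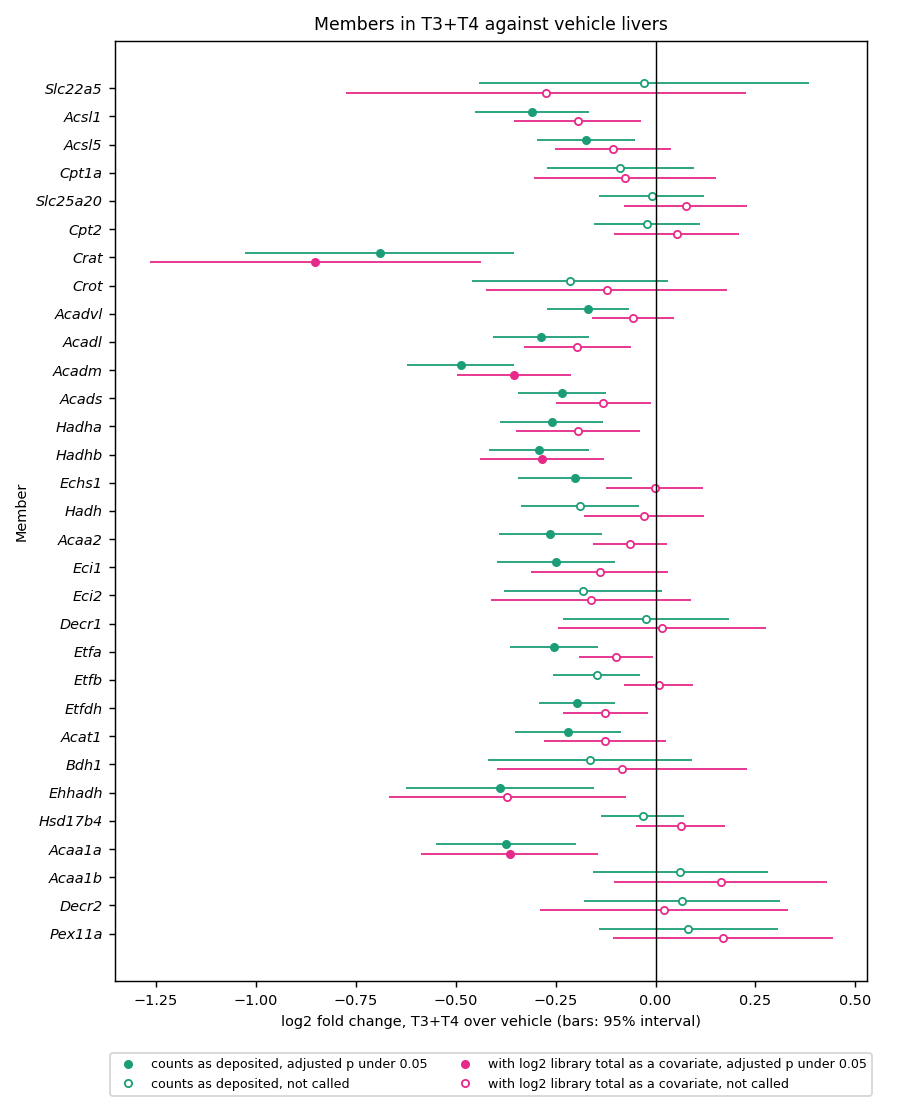
Log2 fold change, T3+T4 over vehicle, with 95% intervals for each member from counts as deposited (green) and with the log2 library total as a covariate (pink). Points are filled where the adjusted p was under 0.05. Of the 17 filled green points, 4 stay filled in pink (Crat, Acadm, Hadhb and Acaa1a).

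Other tissue in the libraries moved with the groups too. Acinar markers averaged at least 5 CPM in 3 T3+T4, 2 vehicle and 1 control liver, and muscle markers in 3 T4, 2 T3 and 2 T3+T4 livers. Of 8 acinar markers tested, 7 were called lower after T3, and of 7 muscle markers tested, 6 were called higher after T3. Without these 12 libraries, 5 members were called lower after T3+T4 (Acaa1a, Acadl, Acadm, Crat and Hadhb) and none after T3, while the median log2 fold changes of the members were -0.24 for T3+T4 and -0.17 for T3. Hepatocyte markers fell as well: 6 of 10 were called lower after T3+T4, with a median of -0.26, among them Alb and Apoa1, which averaged 1.37 and 1.36 counts per exonic base, and 2 of 10 after T3. Animals numbered 54 to 85 held all 6 T3 and all 7 T3+T4 livers, 5 of the 8 T4, 2 of the 5 vehicle and 1 of the 5 control livers. Among these animals alone, 3 members were called lower after T3+T4 (Acaa1a, Acadm and Hadhb) and none after T3, while 31 and 30 of 31 estimates lay below 0. Animal number moved with group, so their parts in the falls cannot be told apart. The part of other tissue was not tested. Fewer libraries entered these fits, and the share of all tested genes called in them is not given here. A smaller count in them need not be particular to the members.

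**Figure D5:**
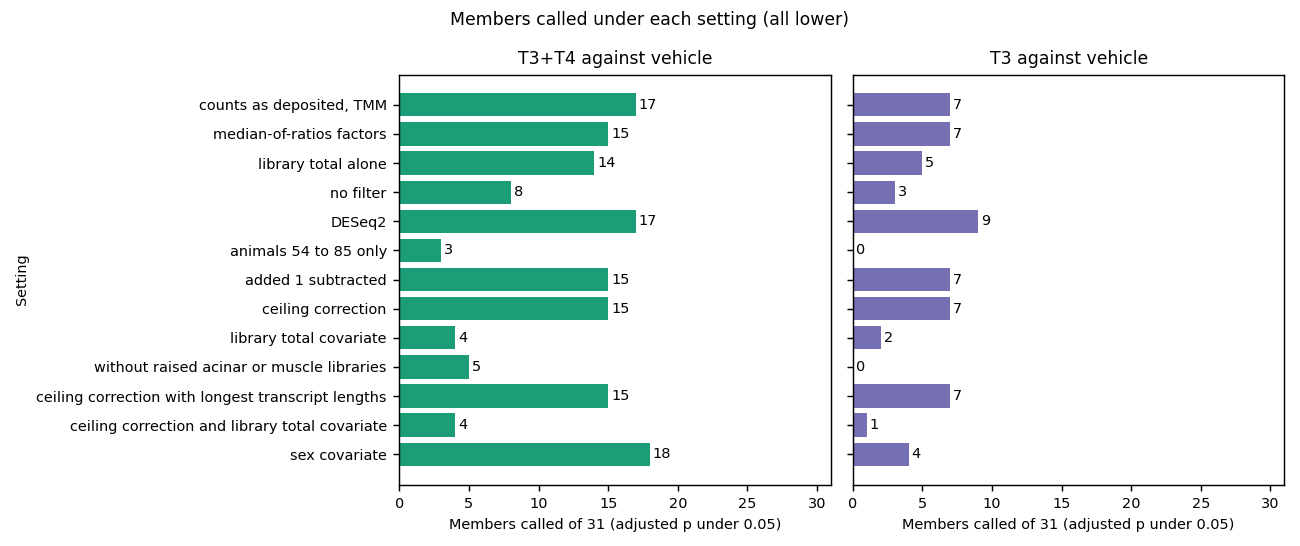
Number of the 31 members called (all lower) under each processing setting for T3+T4 against vehicle (left) and T3 against vehicle (right), as bars from 0. The count falls from 17 to 8 or fewer for T3+T4 without the filter, in animals 54 to 85, with the library total covariate and without raised acinar or muscle libraries, and from 7 to 3 or fewer for T3 under the same settings. With the sex covariate it is 18 for T3+T4 and 4 for T3.

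Genes around the pathway did not all follow the members. After T3+T4, 15.8% of all tested genes were called in either direction and 8.45% lower. In the list of other ketone body genes, 3 of 5 tested were called higher after T3+T4. The genes called higher were Aacs, Oxct1 and Slc16a6, a monocarboxylate transporter family gene (0.98 ± 0.27, adjusted p = 0.0135). Aacs, acetoacetyl-CoA synthetase, averaged 34.2 ± 12.7 CPM in T3+T4 livers (SD, n = 7) and 8.68 ± 1.97 CPM in vehicle livers (n = 5), a log2 fold change of 1.98 ± 0.25 (adjusted p = 4.08e-06), and Oxct1, the transferase of ketone body use, rose by 0.76 ± 0.18 (adjusted p = 0.00442). All 3 stayed called with the library total covariate. The calls of Oxct1 and Slc16a6 were lost in animals 54 to 85 alone (adjusted p = 0.146 and 0.178). They were also lost without raised acinar or muscle libraries (adjusted p = 0.0566 for each). Among 7 genes of malonyl-CoA control, which gates Cpt1a, 3 were higher and 1 lower, with Acaca, acetyl-CoA carboxylase 1, at 0.56 ± 0.08 (adjusted p = 1.4e-05). With the library total covariate, 2 of these 3 stayed called higher and the 1 lower was lost. Of 14 uptake and activation genes tested, 3 were lower and 1 higher, led by Cd36, a fatty acid translocase, at -0.60 ± 0.11 (adjusted p = 0.000634). With that covariate, 1 of these 3 (Cd36) and the 1 higher stayed called.

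Of 20 genes tested in a list of further mitochondrial oxidation genes, 9 were lower and 2 higher after T3+T4. Of 26 in a list of further peroxisomal genes, 6 were lower and 3 higher. Ech1 is in both lists and is counted in the 9 and in the 6. With the library total covariate, 2 of these 9 (Acad10 and Echdc2) and 2 of these 6 (Acox2 and Nudt19) stayed called lower. Of the higher ones, 1 gene of the mitochondrial list (Echdc1) and 2 of the peroxisomal list (Abcd3 and Nudt7) stayed called. Acad10 fell by 0.77 on the log2 scale (adjusted p = 8.12e-05), and Acox2, a peroxisomal oxidase of branched chains and bile acid precursors, fell by 0.49 (adjusted p = 5.98e-05). In the other direction Nudt7, a peroxisomal CoA hydrolase, averaged 184.7 ± 55.5 CPM in T3+T4 livers and 57.9 ± 6.81 CPM in vehicle livers (1.67 ± 0.21, adjusted p = 3.42e-06), and Abcd3, a peroxisomal transporter, was higher by 0.49 ± 0.06 (adjusted p = 4.72e-06). The calls of Acad10, Acox2, Nudt7 and Abcd3 held under each setting and without each library in turn. Of 17 regulators, 3 were lower, among them Sirt3 at -0.31 ± 0.06 and Thra, the thyroid hormone receptor alpha, at -0.34 ± 0.07, and 1 was higher. PPARα targets outside the pathway went both ways, with 4 of 14 lower and 2 higher: Cyp4a14, a fatty acid omega-hydroxylase, stood at -0.88 ± 0.14 (adjusted p = 6.5e-05) and Mgll, monoglyceride lipase, at 0.91 ± 0.14 (adjusted p = 4.21e-05). With the library total covariate, 3 of these 4 and the 2 higher stayed called. Thyroid hormone target genes were called higher in 6 of 8 cases, with Fasn, fatty acid synthase, averaging 249.7 ± 74.9 CPM in T3+T4 livers and 71.0 ± 15.8 CPM in vehicle livers (1.81 ± 0.20, adjusted p = 5.03e-07). Dio1, deleted in all pups but still counted, is 1 of the 8 and was among the 6. These 6 and the called regulators stayed called with the library total covariate. After T3, 6.77% of all tested genes were called in either direction. The same lists then gave 1 of 5 higher for ketone body genes, 2 of 7 higher for malonyl-CoA control and 1 of 14 lower for uptake and activation. With the library total covariate these were 0, 2 and 0. For mitochondrial oxidation 5 of 20 were lower (2 with that covariate). The lists also gave 2 of 26 higher and 6 lower for peroxisomal genes (2 and 1 with that covariate). Regulators had 2 of 17 lower (1 with it) and PPARα targets 1 of 14 higher (1 with it). Thyroid hormone targets had 5 of 8 higher, Dio1 included (4 with it). After T4 there were 1 of 20 lower for mitochondrial oxidation, 1 of 26 higher and 1 lower for peroxisomal genes, 1 of 14 higher for PPARα targets and 1 of 8 higher for thyroid hormone targets, with none in the other 4 lists. That 1 thyroid hormone target was Dio1 (adjusted p = 0.041), a call lost in 11 of the alternative fits, leave-one-out fits included. Of the other T4 calls, Mgll and Acox2 were each lost in 22 such fits, Mut in 16 and Abcd3 in 12 (adjusted p 0.0446 to 0.0455 in the main fit). Of all tested genes, 0.41% were called in either direction after T4. In vehicle against control livers, 2 of 5 ketone body genes were lower (Aacs and Oxct1), and 4 of 14 PPARα targets were higher and 1 lower. In that comparison 6 of 8 thyroid hormone targets and 1 of 7 genes of malonyl-CoA control were lower. There 2 of 20 genes of the mitochondrial list were higher and 1 lower, and 3 of 26 peroxisomal genes were higher and 3 lower. Of 17 regulators, 3 were higher and 1 lower, and none of 14 uptake and activation genes was called. With the library total covariate, 2 of the 3 higher peroxisomal genes stayed called, as did the other calls of that comparison in these lists. Of all tested genes, 9.63% were called there in either direction. T4 against T3 gave 1 call in the 8 lists, Dio1, which was lower in T4 livers.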

How the data were processed

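Whole-number counts per gene were deposited for 43629 genes in 31 mouse liver libraries. Per the labels' protocols, RNA with an integrity number of at least 7.5 entered a stranded mRNA kit. The submitters' processing notes name BWA 0.7.10, bcl2fastq, Trimmomatic and DESeq without roles. They give GRCh38, which is human, whereas the mouse build mm10 stands in the column names. The counting step, its use of strand, the annotation and the treatment of duplicate reads are not given in the sources used here. The lowest value in every library is 1, so 1 seems to have been added to each count before deposit. Since the use of strand is not stated, members that overlap a gene on the other strand may share reads with it, as may paralogs.

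The deposited counts were fitted in edgeR 4.0.16 under R 4.3.3, after TMM scaling and filterByExpr, which kept 17057 genes. The quasi-likelihood model had a mean for each of the groups and all libraries in it. P-values were adjusted by Benjamini-Hochberg over all tested genes, with a threshold of 0.05. The 10 comparisons were vehicle against control, each treatment against vehicle and against control, and the treatments against each other. CPM are after TMM scaling. CPM per kb and counts per exonic base used merged exons of GENCODE M21 (GRCm38). The fit and the ceiling correction were tested on simulated data first.

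The members and lists were chosen with earlier results of these data known. All 31 members are named, with values per liver for those called in a main comparison (vehicle against control, each treatment against vehicle, T4 against T3) and at most 3 called genes per pathway list. The alternatives were median-of-ratios factors, library total alone, no filter, DESeq2 1.42.0, animals 54 to 85, the added 1 subtracted, a covariate for log2 library total, a correction for the ceiling near 2 counts per exonic base, dropping the libraries whose acinar or muscle markers averaged at least 5 CPM, and leaving out each library. A ceiling correction with longest transcript lengths, one joined with the covariate, and a covariate for sex (male where 4 Y-linked genes summed to more CPM than Xist) were added after seeing the data. Protein sequences were not used here. Some genes of the pathway lists are not reported here and are left out of their counts.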

Additional observations from a re-analysis of the deposited data

Results flagged for a closer look

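Of 155 member and group pairs examined, 8 held a liver whose gap to the nearest other liver was large for the group's range, and about 1 in 20 would be flagged by chance. T3 animal 61 stood apart in 3 members: Bdh1 at 207.8 CPM, where the next T3 liver had 486 CPM, Decr1 at 122.8 CPM, where the next had 188.7 CPM, and Slc22a5 at 109.8 CPM, where the next had 54.4 CPM. Bdh1 and Decr1 were lowest there and Slc22a5 was highest. T3 animal 62 was the highest T3 liver for Echs1 at 230.6 CPM, where the next had 193.1 CPM. Control animal 47 was highest among controls for Crat at 139.1 CPM, where the next had 98.8 CPM, and lowest for Etfa at 109.7 CPM, where the next had 121.1 CPM. Control animal 49 was lowest for Acaa1b at 192.2 CPM, where the next had 215.8 CPM, and T4 animal 46 was highest for Hadhb at 204.2 CPM, where the next had 176.8 CPM.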

How the results depend on the processing

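No called member changed direction under any alternative. Over the 40 calls of single members, 305 of the recomputed values stayed past the threshold and 175 did not when a setting was changed, and 1094 stayed and 146 did not when 1 library was left out.

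Counts of members called moved by more than 1.5 times as follows. Without the filter they were 3 for T3 against vehicle, 8 for T3+T4 against vehicle, 0 for T4 against T3 and 5 for T3+T4 against T4. In animals 54 to 85 they were 0 for T3 against vehicle, 3 for T3+T4 against vehicle, 3 for T3+T4 against T4 and 0 for T4 against T3. That fit holds 1 control liver, so no count is given for vehicle against control. With the library total covariate, alone or with the ceiling correction, they were 2 and 1 for T3 against vehicle, 4 and 4 for T3+T4 against vehicle, 2 and 2 for T3+T4 against T4, 0 and 0 for T4 against T3, and 1 and 1 for T4 against control. Without raised acinar or muscle libraries they were 0 for T3 against vehicle, 5 for T3+T4 against vehicle, 2 for T3+T4 against T4, 0 for T4 against T3 and 1 for vehicle against control. With the sex covariate they were 4 for T3 against vehicle and 0 for T4 against T3. DESeq2 called 3 for T4 against T3, 1 for T4 against control and 3 for T3+T4 against control. More genes enter the fit without the filter, and fewer genes or fewer libraries enter some of the others. The cause was not tested further, and a change of count need not be particular to the members. The members' median count per base was 0.476 with longest transcript lengths, against 0.306 with merged exons.

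With each library left out in turn the counts ran from 14 to 20 for T3+T4 against vehicle, 4 to 14 for T3 against vehicle, 10 to 16 for T3+T4 against T4, 1 to 4 for vehicle against control, 0 to 7 for T4 against T3, 0 to 2 for T3 against control and 0 to 1 for T4 against control. They were 0 throughout for T4 against vehicle, T3+T4 against T3 and T3+T4 against control. No paired analysis was possible because animal numbers do not repeat between groups and the labels used here do not name litters. Littermates may therefore be present within and across groups, and the tests treat all pups as independent.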
